A study of Homo sapiens with 6 samples.

Results

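The genes described here are 10 keratins of PC3 cells, a set of 4 keratins of simple epithelium (KRT7, KRT8, KRT18 and KRT19) and 6 keratins of basal, stressed or hair-forming epithelium (KRT5, KRT15, KRT16, KRT17, KRT80 and KRT81). They were found by symbol through the Ensembl gene IDs of the expression table, and all 10 were among its 61895 rows, which hold 55 protein-coding keratin genes in all. PC3 is an established androgen-independent line of human prostate cancer. Short hairpin RNA against CTSZ, the gene of the lysosomal protease cathepsin Z, was delivered by lentivirus to 3 samples (shCTSZ), and 3 control samples carried the vector alone (shControl, genotype NC in the labels). Both groups went through antibiotic selection as stable populations and were grown in medium with serum. The study asked how CTSZ acts on the secretion of cytokines. Whether the samples of a group were separate cultures, and how many hairpins were used, is not stated in the labels, and any p-value therefore measures only the spread between these samples. These 10 genes were picked with their difference between the groups already known, so their values are given as a description, without a test.

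Keratins are the intermediate filament proteins of epithelial cells. A filament forms only from pairs of an acidic type I keratin with a basic or neutral type II keratin, and unpaired keratin is broken down. KRT8 pairs with KRT18 in simple epithelia, including the luminal cells of the prostate gland, where KRT7 and KRT19 accompany them to varying degrees. KRT5 pairs with KRT14 or KRT15 in basal cells, KRT16 and KRT17 appear in wounded, stressed or regenerating epithelium, KRT80 lies near desmosomes and the cell edge, and KRT81 is a keratin of the hair shaft. Keratin genes sit in a type II cluster on chromosome 12, which also contains the type I gene KRT18, and a type I cluster on chromosome 17.

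The end of the central rod domain is among the most alike regions of all keratins, and it is shown here for the type I members. Each line gives the same 48 coding bases, read 5′ to 3′ on the coding strand from a GENCODE 29 transcript (GRCh38), and capitals mark the 33 positions at which all 5 genes have the same base.
KRT18: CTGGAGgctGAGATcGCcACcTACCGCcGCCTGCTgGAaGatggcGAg
KRT19: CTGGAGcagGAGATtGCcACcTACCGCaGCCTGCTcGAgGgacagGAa
KRT15: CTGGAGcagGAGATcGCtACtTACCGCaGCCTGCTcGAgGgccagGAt
KRT16: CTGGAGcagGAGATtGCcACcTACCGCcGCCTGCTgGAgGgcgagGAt
KRT17: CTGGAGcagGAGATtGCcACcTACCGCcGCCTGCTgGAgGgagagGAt

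From KRT18, KRT16 and KRT17 differed at 10 of the 48 bases each, KRT19 at 13 and KRT15 at 14. Over whole coding sequences the 10 pairs of type I members were 58.1 to 72.6% identical (median 62.8%) and the 10 pairs of type II members 51.6 to 68.5% (median 60.8%). The 25 pairs of a type I with a type II member were 43.2 to 53.6% identical (median 50.9%). KRT16 and KRT17, both on chromosome 17, were the most alike at 72.6%.

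Levels are given in TPM, a share of each library corrected for transcript length. Read totals cannot be had from TPM, which leaves the depth unknown, and no interval for counting error can be given. In bulk RNA, fewer cells making a keratin and less of it per cell cannot be told apart. CTSZ itself was listed at 90.6, 94.7 and 93.2 TPM in the control libraries, against 21.7, 18.3 and 19.7 TPM with the hairpin. The libraries listed 24299 to 24714 genes above 0 in shControl and 23679 to 24045 in shCTSZ, and mitochondrially encoded genes took 5.1 to 5.38% and 6.24 to 6.38% of TPM. Both measures differ between the groups as the keratins do, and their part in the keratin values was not tested. Fold changes are differences of mean log2(TPM + 1), shCTSZ minus shControl, with the standard error (SE) of limma, and this scale understates the change of low genes.

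KRT18 and KRT8 were the only keratins listed above 98.8 TPM in any library, and both were higher in all 3 shCTSZ libraries than in any shControl library. KRT18 (ENSG00000111057, type I, chromosome 12, 52948871 to 52952901, plus strand) was the most abundant keratin. It was listed at 3096, 3141 and 3208 TPM in shControl and at 3858, 3847 and 3873 TPM in shCTSZ. The shCTSZ libraries lay closer together than the shControl libraries, and the lowest of them stood well above the highest shControl library. The mean went from 3148.5 ± 57 to 3859.4 ± 13 TPM (SD, n = 3), a ratio of 1.23 and a log2 fold change of 0.29 (SE 0.02). By mean level KRT18 was row 46 of the table in shControl and row 30 in shCTSZ.

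KRT8 (ENSG00000170421, type II, chromosome 12, 52897187 to 52949954, minus strand), the partner of KRT18, was listed at 1249, 1259 and 1258 TPM in shControl. In shCTSZ it was listed at 2364, 2191 and 2356 TPM. Replicate 2 was the lowest shCTSZ library for KRT8 and still stood far above every shControl library. The mean went from 1255.7 ± 5.4 to 2303.8 ± 98 TPM, a ratio of 1.83 and a log2 fold change of 0.87 (SE 0.033). KRT8 moved from row 126 to row 66 of the table by mean level.

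KRT7 (ENSG00000135480, type II, chromosome 12, 52232520 to 52252186, plus strand), a keratin of ducts and glands, went the other way from its fellow simple keratins KRT8 and KRT18. It was listed at 31.9, 29.1 and 31.9 TPM in shControl and at 19.3, 19.7 and 21.7 TPM in shCTSZ, and the groups did not overlap. The mean went from 31.0 ± 1.6 to 20.2 ± 1.3 TPM, or 65.3% of the control, with a log2 fold change of -0.59 (SE 0.067). KRT19 (ENSG00000171345, type I, chromosome 17, 41523617 to 41528308, minus strand), the smallest keratin and one without a tail domain, was near the bottom of the range. It was listed at 3.64, 0.52 and 0.58 TPM in shControl and at 0.78, 0.69 and 0.82 TPM in shCTSZ. Only shControl replicate 1 was high, the groups overlapped, and the other shControl libraries lay below every shCTSZ library. Its log2 fold change of -0.34 had an SE of 0.44, and without that library KRT19 had a mean under 1 TPM and was not tested.

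**Figure D1:**
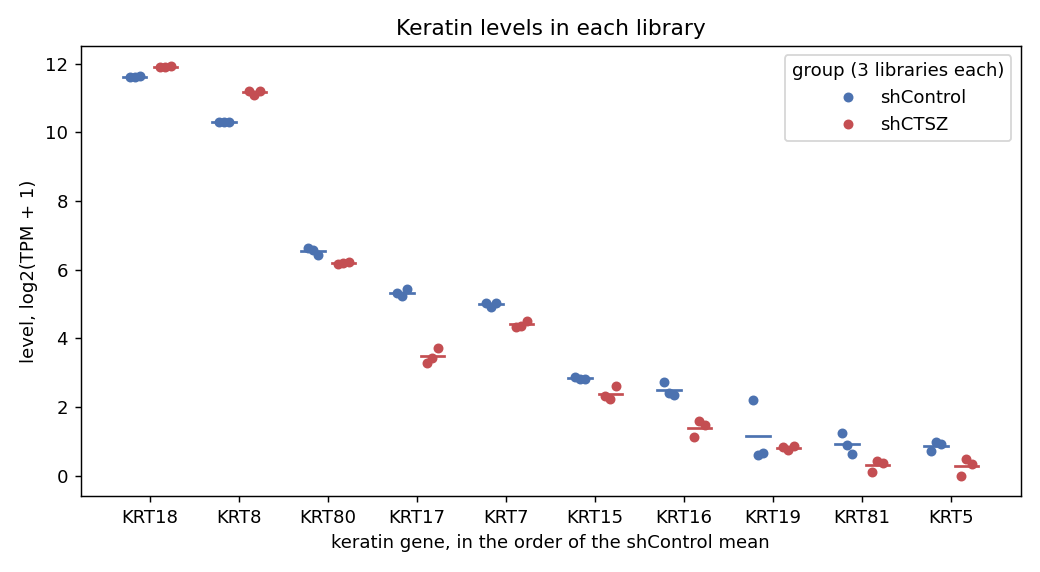
Level of each of the 10 keratins in each library as log2(TPM + 1), with genes in the order of their shControl mean, shControl in blue and shCTSZ in red (3 libraries each), and a line at each group mean. KRT18 and KRT8 stand far above the others and are higher in shCTSZ, KRT17 shows the widest gap between the groups, and 1 shControl library stands apart for KRT19.

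KRT17 showed the largest difference of all members on the log2 scale, and KRT16 the next. KRT17 (ENSG00000128422, type I, chromosome 17, 41619441 to 41624842, minus strand) is induced in wounds, in basal tumours and by inflammatory signals. It was listed at 38.8, 36.6 and 42.6 TPM in shControl and at 8.67, 9.86 and 12.3 TPM in shCTSZ. Every shCTSZ library was far below every shControl library. The mean went from 39.3 ± 3.0 to 10.3 ± 1.8 TPM, or 26.1% of the control, with a log2 fold change of -1.85 (SE 0.12), and KRT17 moved from row 3649 to row 8462 by mean level. KRT16 (ENSG00000186832, type I, chromosome 17, 41609778 to 41615899, minus strand) is made with KRT17 in wounded and hyperproliferative epidermis. It was listed at 5.59, 4.29 and 4.13 TPM in shControl and at 1.18, 2.0 and 1.76 TPM in shCTSZ. The groups did not overlap, and the mean was 35.3% of the control (log2 fold change -1.1, SE 0.17).

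KRT15 and KRT5 are keratins of basal cells. KRT15 (ENSG00000171346, type I, chromosome 17, 41513743 to 41522529, minus strand), also a marker of hair follicle stem cells, was listed at 6.35, 6.06 and 6.04 TPM in shControl and at 3.99, 3.7 and 5.11 TPM in shCTSZ. Replicate 3 of shCTSZ came closest to the control libraries without reaching them. The log2 fold change was -0.45 (SE 0.12), the mean 69.4% of the control. KRT5 (ENSG00000186081, type II, chromosome 12, 52514575 to 52520687, minus strand), the defining type II keratin of basal cells, was barely listed, at 0.65, 0.97 and 0.9 TPM in shControl and at 0, 0.39 and 0.28 TPM in shCTSZ. The KRT5 groups did not overlap, but its mean over all libraries, 0.532 TPM, was under the minimum of 1 TPM for testing. KRT15 was thus the more abundant of the basal members in every library, with no comparable level of the usual type II partner KRT5.

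KRT80 (ENSG00000167767, type II, chromosome 12, 52168996 to 52192000, minus strand) was the most abundant member after KRT18 and KRT8. It was listed at 98.8, 94.3 and 85.4 TPM in shControl and at 70.3, 73.0 and 73.9 TPM in shCTSZ. The groups did not overlap, and the shCTSZ libraries were closer to each other than the shControl libraries were. The mean went from 92.8 ± 6.8 to 72.4 ± 1.9 TPM, or 78.0% of the control, with a log2 fold change of -0.35 (SE 0.059). KRT81 (ENSG00000205426, type II, chromosome 12, 52285913 to 52291534, minus strand) was listed at 1.35, 0.86 and 0.54 TPM in shControl and at 0.09, 0.36 and 0.3 TPM in shCTSZ. These did not overlap either, but the mean of 0.583 TPM was again under the minimum for testing.

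Of the 10 members, 8 reached a mean of 1 TPM and entered the fit over all genes, and of these KRT8 and KRT18 were past its threshold as higher and KRT7, KRT15, KRT16, KRT17 and KRT80 as lower. The threshold was a limma adjusted p under 0.05 over 14874 genes, of which 34.5% passed, 19.8% as higher and 14.7% as lower. Since the members were chosen from this contrast, nothing is read from their count. KRT19 was kept only through 1 shControl library, and KRT5 and KRT81 were not kept. The groups did not overlap for 7 of the 8 tested members, KRT19 being the exception, beside 50.3% of all genes tested, and nothing is read from this either. The median log2 fold change was -0.4 over the 8 members that were tested, -0.02 over the 4 simple ones, -0.78 over the other 4 tested, and 0.04 over all 14874 genes. The call of KRT15 was lost without any 1 of the 3 shControl libraries, and without shCTSZ replicate 1 or 2, at log2 fold changes of -0.46 to -0.37, and was kept without shCTSZ replicate 3 (-0.56).

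**Figure D2:**
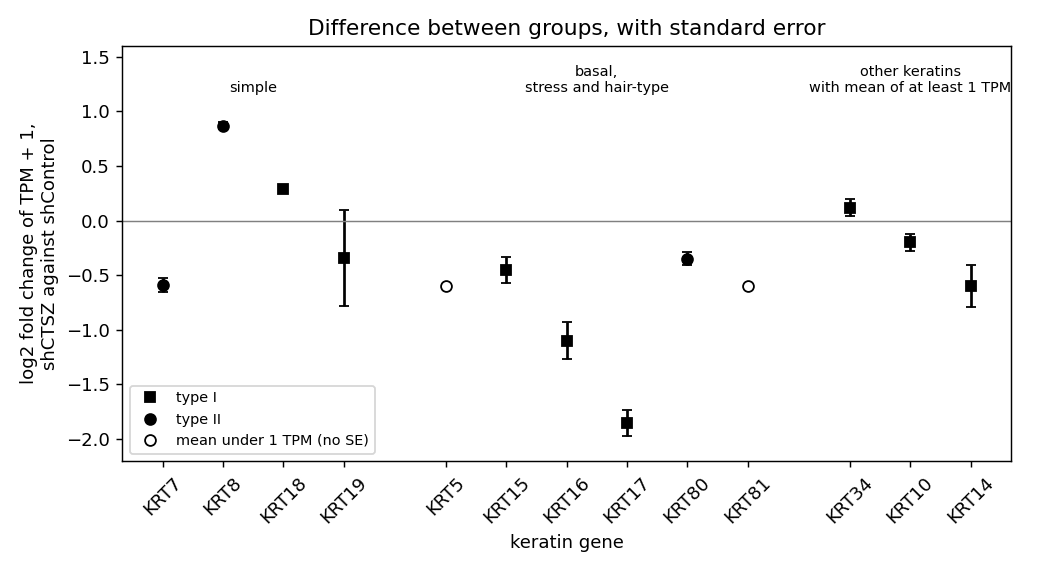
Difference in mean log2(TPM + 1), shCTSZ minus shControl, with the limma standard error as bars, for the 10 members and for the 3 other keratins with a mean of at least 1 TPM (squares type I, circles type II, open symbols mean under 1 TPM with no error). KRT8 at 0.87 and KRT18 at 0.29 are the members above 0, KRT17 at -1.85 is the lowest, and the bar of KRT19 crosses 0.

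In shControl the order of levels was KRT18, KRT8, KRT80, KRT17, KRT7, KRT15, KRT16, KRT19, KRT81 and KRT5. Neighbours in that order did not overlap in their range over libraries down to KRT16, while KRT19, KRT81 and KRT5 overlapped with each other in turn. In shCTSZ, KRT7 stood above KRT17, and KRT81 and KRT5 were the only neighbours that overlapped. The place of KRT17 and KRT7 was the only change in the order. The span was wide in both groups, from KRT18 and KRT8 above 1249 TPM in every library to KRT5 and KRT81 at or under 1.35 TPM.

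The summed level of all 55 keratin genes was 4557, 4596 and 4663 TPM in shControl and 6348, 6170 and 6365 TPM in shCTSZ, or 0.461 ± 0.0053% and 0.629 ± 0.011% of the library (SD, n = 3). KRT8 and KRT18 alone held 95.6 ± 0.24% of the sum in shControl and 97.9 ± 0.096% in shCTSZ, so the sum follows these 2 genes. The 4 simple keratins together held 96.3 ± 0.18% and 98.2 ± 0.082%. The sum of the 51 keratins outside these 4 was 176.1, 166.7 and 163.6 TPM in shControl and 105.2, 111.6 and 114.0 TPM in shCTSZ. Its highest shCTSZ library thus stood below its lowest shControl library, and its mean was 0.653 of the control. In shControl its largest terms were the members KRT80 and KRT17, with means of 92.8 and 39.3 TPM there and 72.4 and 10.3 TPM in shCTSZ. This sum therefore mainly follows genes picked with their difference known. KRT34, the most abundant keratin outside the members, had means of 10.0 and 11.0 TPM.

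Because filaments need both types, the ratio of the types is given per library. KRT8 divided by KRT18 was 0.404, 0.401 and 0.392 in shControl and 0.613, 0.569 and 0.609 in shCTSZ, with means of 0.399 ± 0.006 and 0.597 ± 0.024. KRT18 was above KRT8 in every library. Over all keratins, type II divided by type I was 0.436, 0.432 and 0.42 in shControl and 0.631, 0.588 and 0.627 in shCTSZ. Type I transcript exceeded type II by 1839.6 ± 59 TPM in shControl and by 1498.7 ± 88 TPM in shCTSZ. KRT7 relative to KRT8 went from 0.0247 ± 0.0014 to 0.00878 ± 0.00053. These are ratios of transcripts, and keratin protein was not measured here.

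**Figure D3:**
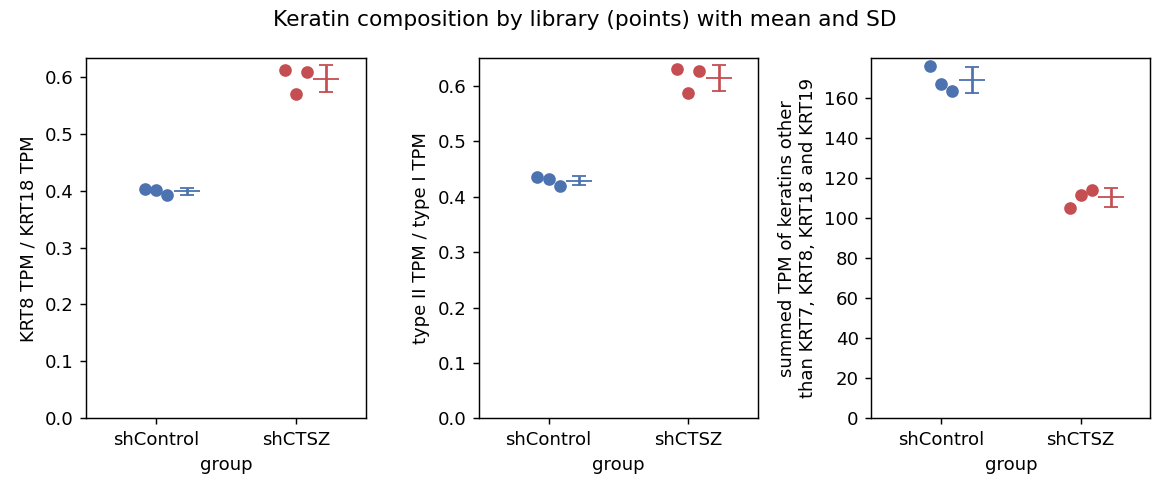
Measures of keratin composition in each library (points, 3 per group) with the group mean and SD beside them: KRT8 TPM over KRT18 TPM, type II over type I TPM for all 55 keratin genes, and the summed TPM of keratins other than the 4 simple ones, all on axes from 0. In each panel the groups do not overlap, with means of 0.399 and 0.597 for KRT8 over KRT18 and of 168.8 and 110.3 TPM for the sum of other keratins.

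Among the other 45 keratin genes, 14 were listed at 0 in all 6 libraries and 28 had a mean under 1 TPM, with no value above 0.72 TPM. KRT34, KRT10 and KRT14 reached a mean of 1 TPM. KRT34, a hair keratin, was listed at 10.8, 10.1 and 9.28 TPM in shControl and at 10.9, 11.6 and 10.4 TPM in shCTSZ, overlapping groups with a log2 fold change of 0.12 (limma adjusted p = 0.297). KRT10, a type I keratin of differentiating epidermis, was listed at 9.08, 9.08 and 9.25 TPM and at 8.26, 7.22 and 8.09 TPM (log2 fold change -0.2, limma adjusted p = 0.0903). It passed the threshold under quantile normalisation and with the trend over GC content and length removed (adjusted p over its alternatives 0.0344 to 0.24). KRT14, the basal partner of KRT5, was named after its values were seen and was listed at 1.94, 1.31 and 1.52 TPM in shControl and at 0.68, 0.74 and 0.68 TPM in shCTSZ. Its log2 fold change of -0.6 was past the threshold (limma adjusted p = 0.0442), and the call was lost under 9 of its 14 alternatives, among them each library left out that still let it be tested (adjusted p over all of them 0.00962 to 0.108). With group means of 1.59 and 0.7 TPM, KRT14 met the minimum mean of 1 TPM only through shControl, where it was higher. Nothing is therefore read from its call. Without shControl replicate 1 the mean of KRT14 was under 1 TPM. KRT14 was the only keratin outside the members that was called, 1 of 3 tested with limma, and 0 of 3 were higher (0 at an unadjusted p under 0.05). Over all genes tested 34.5% were called, 14.7% as lower, and nothing is read from this count of keratins.

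The estimate of a keratin level depends on how reads were divided between like copies, so the share of each transcript that recurs elsewhere was counted. Of all 50-base windows in 1 coding transcript of each member, 44.6% of those of KRT81 were found in transcripts of another gene, most often the neighbouring hair keratin KRT86 (38.4%). The share was 32.7% for KRT8 and 31.8% for KRT18, found in 37 and 43 other genes, mainly processed pseudogenes. It was 22% for KRT16, with KRT16P3 (13%) and KRT14 (11.3%) as the main sharers, and 16.0% for KRT17. For KRT5, KRT19, KRT7, KRT80 and KRT15 it was 3.99%, 1.79%, 0.997%, 0.42% and 0.328%. The values of KRT81, KRT8, KRT18, KRT16 and KRT17 are therefore uncertain as to which copy the reads came from, while KRT7, KRT80 and KRT15 have few such windows.

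The basal keratin KRT14 shows how like such genes are. The line gives its 48 bases at the end of the rod from GENCODE 29, and capitals mark the 2 bases that differ from KRT16.
KRT14: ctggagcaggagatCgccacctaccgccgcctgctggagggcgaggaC
KRT86 was listed at 0.45, 0.71 and 0.72 TPM in shControl and at 0.19, 0.36 and 0.21 TPM in shCTSZ, without overlap, as its near copy KRT81 was.

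Adding the levels of pseudogenes to their parents left every ratio between groups on the same side of 1. The 51 KRT8 pseudogenes in the table summed to a mean of 13.5 TPM in the control libraries and 12.3 TPM in shCTSZ, and the 67 KRT18 pseudogenes to 2.65 and 3.03 TPM. These sums are at most 1.07% of KRT8 and 0.0841% of KRT18, and the ratios between groups were 1.82 and 1.23 with them added. The pseudogenes of KRT16 held nearly as much as KRT16 itself, 4.04 and 1.58 TPM, or 86.6% and 96.0% of the parent. The most abundant of these, KRT16P6, was listed at 2.57, 3.77 and 3.73 TPM in shControl and at 1.5, 0.57 and 1.19 TPM in shCTSZ. KRT16 with its pseudogenes had a ratio of 0.37 in place of 0.353. KRT8 and KRT18 also overlap by 1084 bases on opposite strands, and 8 of the 17 KRT8 transcripts annotated start beyond the start of KRT18. Whether the counting used strand is not given in the sources used here, so reads in the overlap could have gone to either gene.

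Markers of the cells that these keratins are known from were examined beside them. Of 15 prostate luminal markers, KLK3, FOLH1, ACP3 and MSMB were listed at 0 in all 6 libraries, and the epithelial adhesion gene EPCAM had means of 0.15 and 0.0967 TPM in shControl and shCTSZ. High KRT8 and KRT18 thus stood beside a luminal set that was largely not listed, and that summed to 17.8 to 19.8 TPM in shControl and 17.8 to 19.6 TPM in shCTSZ. Of the 4 luminal markers tested with limma, 0 passed the threshold and 0 had an unadjusted p under 0.05. GATA2, a luminal transcription factor gene, had 9.53 ± 0.64 and 9.73 ± 0.57 TPM.

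Basal markers outside the members moved both ways, with 3 of 9 tested higher and 4 lower (33.3% and 44.4%, against 19.8% and 14.7% of all genes). The number higher was 1 without shControl replicate 3 or without shCTSZ replicate 3. All 12 genes of this list summed to 629.0 to 693.8 TPM in shControl and 591.7 to 604.8 TPM in shCTSZ. S100A2, a calcium-binding protein gene of basal cells, fell from 240.5 ± 24 to 104.4 ± 2.9 TPM (log2 fold change -1.19, limma adjusted p = 0.000152), and NGFR, a basal surface receptor gene, fell from 23.7 ± 1.7 to 9.93 ± 0.49 TPM (log2 fold change -1.17). KRT14, given above with its limit, is in this list and among those counted as lower. SNAI2 fell as well, from 2.97 ± 0.47 to 1.34 ± 0.12 TPM. CAV1, the main protein of caveolae, rose from 188.0 ± 12 to 250.5 ± 3.0 TPM, and the Notch ligand JAG1 from 46.0 ± 3.2 to 55.2 ± 3.5 TPM, though the JAG1 call was lost under 6 of 16 alternatives. TP63, the transcription factor that drives KRT5 and KRT14 in basal cells, was listed at 27.4 ± 2.5 and 27.3 ± 1.4 TPM beside a KRT5 level under 1 TPM (95% interval of the log2 fold change -0.19 to 0.18, limma adjusted p = 0.986).

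Among markers of other cells, those past the threshold were all lower, beside 14.7% of all genes lower. Of 11 mesenchymal markers 7 were tested and 1, SNAI1, was lower (3.06 ± 0.24 to 1.86 ± 0.21 TPM, a call lost under 6 of 15 alternatives), with sums of 1925.5 to 1975.6 and 2001.3 to 2051.2 TPM made up mainly of VIM. Of 7 neuroendocrine markers 2 were tested and both were lower. These were ENO2 (90.8 ± 7.9 to 74.7 ± 4.1 TPM) and SYP (27.3 ± 3.9 to 20.3 ± 2.2 TPM), calls lost under 7 and 10 of 16 alternatives, while INSM1 was listed at 0 throughout. The 7 leukocyte markers summed to 12.1 to 14.6 and 10.5 to 12.8 TPM, nearly all of it CD68, and PTPRC had a mean of 0.00667 and 0.0167 TPM. Of 24 genes of the cornified envelope and of epidermal stress, in which KRT16 and KRT17 take part, 11 were listed at 0 in every library, IVL and LORICRIN among them. Only 2 of them were tested, and they went opposite ways. SPRR2D was lower, from 2.25 ± 0.4 to 0.367 ± 0.24 TPM, and met the minimum mean of 1 TPM only through shControl. PI3 had 1.74 ± 0.82 and 2.58 ± 0.47 TPM and was not called (log2 fold change 0.42, limma adjusted p = 0.234). The part of any of these cell states in the keratin values was not tested.

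Keratin filaments end on desmosomes and hemidesmosomes, and 18 of 24 genes of these junctions were tested. Of these 3 rose and 7 fell (16.7% and 38.9%, against 19.8% and 14.7% of all genes), with a median log2 fold change of -0.2. PPL, which encodes periplakin, a linker of keratin to the desmosome, fell from 30.5 ± 0.8 to 15.1 ± 1.4 TPM (log2 fold change -0.98, limma adjusted p = 0.000326). DST, which encodes the hemidesmosomal linker BPAG1 among other forms, fell from 57.7 ± 3.6 to 39.0 ± 1.4 TPM, and the laminin chain LAMB3 from 337.5 ± 6.2 to 277.1 ± 19 TPM. ITGA6, the laminin receptor subunit of hemidesmosomes, rose from 127.0 ± 6.7 to 158.5 ± 7.1 TPM. CD151, a tetraspanin that binds that receptor, fell from 530.7 ± 15 to 449.7 ± 4.5 TPM, a call lost when the trend over GC content and length was removed (adjusted p = 0.123, over its alternatives 0.00105 to 0.123).

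Of 18 intermediate filament genes other than keratins, 6 were tested with limma, 3 rose and 0 fell (0 at an unadjusted p under 0.05). Of all genes tested, 19.8% rose and 14.7% fell, and the difference from these shares was not tested. The number of filament genes that rose was 2 to 4 over the alternatives, and with 6 tested nothing is read from it. The nuclear lamins LMNB1 (35.8 ± 1.4 to 43.5 ± 2.1 TPM) and LMNB2 (127.1 ± 7.1 to 157.6 ± 8.5 TPM) rose, and IFFO2 rose from 4.91 ± 0.45 to 6.86 ± 1.1 TPM with a call lost under 10 of 16 alternatives. VIM, the filament of mesenchymal cells, was listed at 1685.4 ± 41 and 1758.8 ± 17 TPM. It thus stood above KRT8 in shControl and below KRT8 in shCTSZ, while KRT18 was above VIM in both groups.

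Of a list of 35 regulators of epithelial genes, 28 were tested, all of them transcription factors (the splicing regulators ESRP1 and ESRP2 were not tested). Of these 8 rose and 10 fell (28.6% and 35.7%, against 19.8% and 14.7% of all genes), with a median log2 fold change of -0.03. Without shCTSZ replicate 3 the number that rose was 5, and 6 fell when the trend over GC content and length was removed. KLF4, a factor of epithelial differentiation, fell from 32.3 ± 1.4 to 17.6 ± 0.73 TPM (log2 fold change -0.84, limma adjusted p = 0.000229), and ELF3, an epithelial ETS factor, from 4.41 ± 0.98 to 0.747 ± 0.27 TPM. ELF3 met the minimum mean of 1 TPM only through shControl. SOX9, a factor of duct and hair follicle progenitors, rose from 40.1 ± 0.94 to 56.4 ± 2.4 TPM. SP3, which binds GC-rich promoters, rose from 39.2 ± 3.4 to 56.4 ± 1.5 TPM, and the AP-1 subunit FOSL2 rose from 20.7 ± 1.4 to 29.5 ± 0.53 TPM. The other AP-1 subunits in the list went both ways. JUN was called higher (log2 fold change 0.24), and JUNB (-0.36), FOS (-0.43) and FOSL1 (-0.19) were called lower.

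Of 26 genes whose products bind, modify or clear keratins, 24 were tested, 8 rose and 4 fell, with a median of 0.12. That is 33.3% and 16.7% of those tested, against 19.8% and 14.7% of all genes. TGM2, a transglutaminase that cross-links KRT8 in stressed liver cells, rose from 294.3 ± 16 to 630.2 ± 19 TPM (log2 fold change 1.1, limma adjusted p = 3.95e-05). HSPA8, a chaperone, rose from 239.4 ± 3.2 to 337.2 ± 11 TPM, and PPP2CA, the catalytic subunit of a phosphatase that acts on keratins, rose from 203.1 ± 5.6 to 265.0 ± 4.2 TPM. SFN, the 14-3-3 protein that binds KRT17, fell from 338.3 ± 12 to 224.0 ± 10 TPM (limma adjusted p = 0.000306). SQSTM1, the p62 protein found with keratins in Mallory-Denk bodies, fell from 521.1 ± 21 to 384.4 ± 9.7 TPM.

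**Figure D4:**
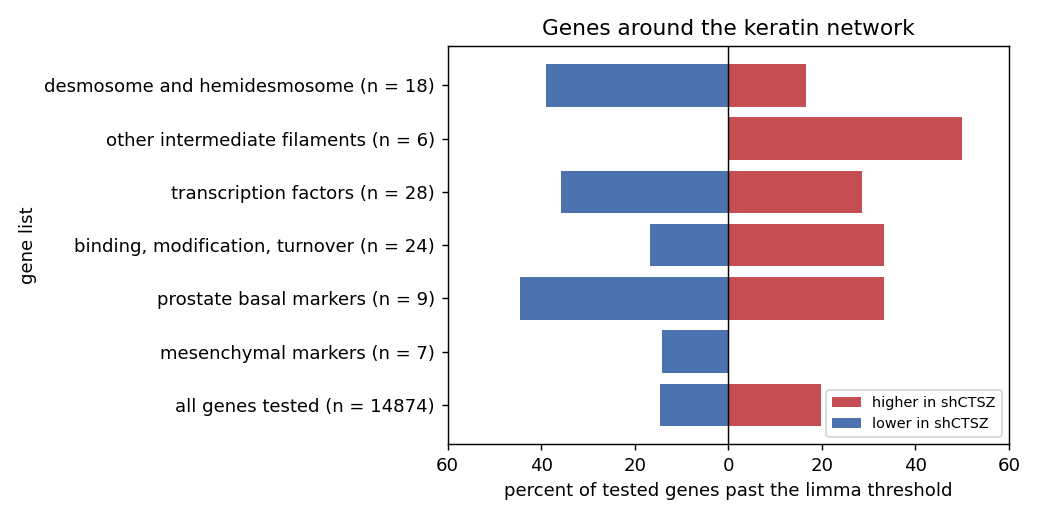
Percent of tested genes past the limma threshold as higher (right, red) or lower (left, blue) in shCTSZ, for the 6 lists with at least 6 genes tested and for all 14874 genes tested. All genes stand at 19.8% higher and 14.7% lower, the desmosome and hemidesmosome list at 3 higher and 7 lower of 18, and the binding, modification and turnover list at 8 higher and 4 lower of 24.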

How the data were processed

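RNA-seq of 3 shControl and 3 shCTSZ samples of PC3 cells was used, grouped by the sample descriptions. The authors deposited 1 table of TPM values, with every column of per-sample values mapped to a sample by name. Total RNA was taken with TRIzol and libraries were made with a SMARTer mRNA-seq kit, per the labels' protocols. fastp, RSEM and the build GRCh38.p13 are listed, without versions or order, per the submitters' processing notes. The aligner, which annotation was used and whether strand was counted is not given in the sources used here. RSEM divides reads between like copies by estimate. Of 61895 rows 61541 carry an Ensembl gene ID and 61369 were paired with a symbol.

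Genes averaging 1 TPM or more over the 6 libraries (14874) were fitted as log2(TPM + 1) on group alone with limma 3.58.1 in R 4.3.3, using moderated variances with a trend and Benjamini-Hochberg adjustment at 0.05. An exact permutation test of 3 against 3 libraries could not pass that threshold and was not used for single genes. The members and all lists were chosen with earlier results of these data known. Named were all members, other keratins with a mean of at least 5 TPM in a group, from each list up to 5 called genes, those with the smallest adjusted p (a selection is printed), CTSZ, and the 3 genes with the smallest root-mean-square distance from KRT18 or KRT80; other names, such as TP63, KRT86, KRT16P6 and markers given by level, were chosen after their values were seen.

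Sequences, positions and gene types came from GENCODE 29 (GRCh38), with coding identity from global alignment in Biopython 1.88. Some marker values and sequences are not reported here. The alternatives were pseudocounts of 0.1 and 5, no filter, a minimum mean of 5 TPM, size factors from medians of ratios, quantile normalisation, removal of the trend over GC content and length (splines with 5 degrees of freedom, 14324 genes), no mean-variance trend, library weights, a replicate block, each library left out, pseudogenes added to their parents, and totals over the members alone. The fit was tested on simulated data of 14874 genes, with 67, 67 and 66 genes changed 1.5-, 2- and 4-fold. It recovered 55.2%, 82.1% and 93.9% of these, with 7.23% of 166 calls false. Far fewer genes were changed there than passed in the real data (34.5%), so these rates do not carry over to the real calls. Replicate numbers were taken from the sample descriptions, while the titles number the shCTSZ samples differently. These numbers were not used as pairs in the main fit. Same-numbered samples correlated in their deviations from the group means at -0.0903, -0.0202 and -0.0396, and differently numbered ones at -0.0316 to 0.0701. With 3 samples in a group, these values cannot show whether samples were prepared together.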

Additional observations from a re-analysis of the deposited data

How the results depend on the processing

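Depth cannot be had from TPM, so no limit is given for keratins listed near 0, and KRT5, KRT81 and KRT19 are the members this touches most. Under all 17 alternatives KRT8 and KRT18 were called higher, KRT7, KRT17 and KRT80 lower, and no tested member changed sign. The log2 fold change ranged from 0.82 to 0.96 for KRT8, from 0.24 to 0.36 for KRT18, from -0.64 to -0.44 for KRT7, from -1.97 to -1.54 for KRT17 and from -0.41 to -0.31 for KRT80. KRT16 ranged from -1.47 to -0.54 with the pseudocount, and was called wherever it was tested. The KRT15 call was lost under 7 of 17 alternatives, with no filter, the replicate block and 5 of the 6 libraries left out. Scaling moved the median of all genes by at most 0.045 on the log2 scale. Of all genes 2950 were higher and 2185 lower, and 2462 and 2661 under median-of-ratios scaling.

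The number of keratins outside the members past the threshold, all lower, was 1 in the main fit. It was 2 with no filter (KRT33B and KRT20, in place of KRT14), 0 with a mean of at least 5 TPM, 0 with the replicate block, and 0 to 0 over the 6 libraries left out in turn. With the replicate block 2236 genes were higher and 1790 lower, among them 2 and 4 of the members. The samples share only a number in their descriptions, and the titles number the shCTSZ samples differently, so this is no sign of pairing. With the members alone in the total, the simple keratins held 96.8% in shControl and 98.6% in shCTSZ.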

Other observations

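Keratin-associated proteins, which embed keratin filaments in the hair shaft, were looked at after the keratins, and their values were seen before they were chosen. Of 94 such genes 69 were listed at 0 in all 6 libraries, 3 had a mean of at least 1 TPM, and KRTAP2-3 was by far the most abundant. KRTAP2-3 was listed at 537.8, 648.9 and 578 TPM in shControl and at 885.0, 1002 and 971 TPM in shCTSZ. Its groups did not overlap, with a log2 fold change of 0.7 (SE 0.075, limma adjusted p = 0.000975, over its alternatives 0.000341 to 0.00577). KRTAP2-3 was thus listed above every keratin but KRT18 and KRT8. KRTAP2-4, its neighbour on chromosome 17, went from 5.93 ± 0.73 to 7.56 ± 0.52 TPM (adjusted p = 0.0583).

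Over 11871 protein-coding genes and the 6 libraries, the genes with the profile most like KRT18 were MAP3K14 (root-mean-square distance 0.00971 on the log2 scale), LSG1 (0.0153) and SSB (0.0158). Those most like KRT80 were EHBP1 (0.0229), GRK6 (0.0246) and HSBP1L1 (0.0285). Libraries within a group share their spread, so such distances describe these 6 libraries only.

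Within 250 kb of the members, 17 protein-coding genes outside the keratin family were tested. Other gene types were not looked at, and those past the threshold are named after their values were seen. Of 3 near KRT80, KRT7 and KRT81, 1 was higher and 2 were lower. Of 6 near KRT8 and KRT18 it was 1 and 3, and of 8 near the members on chromosome 17 it was 2 and 4. Over all genes 19.8% were higher and 14.7% lower, and the difference from these shares was not tested. Near KRT80, KRT7 and KRT81, NR4A1 (60.4 ± 0.67 to 37.4 ± 2.9 TPM) and ATG101 were lower and ACVR1B higher. Near KRT8 and KRT18, the higher gene was EIF4B (257.6 ± 11 to 352.4 ± 6.2 TPM), while IGFBP6 (35.2 ± 4.6 to 16.6 ± 1.5 TPM), CSAD and SPRYD3 were lower. Near the members on chromosome 17, ACLY (121.5 ± 7.7 to 183.1 ± 5.8 TPM) and KLHL11 were higher, and JUP, the desmosomal plakoglobin, EIF1, HAP1 and FKBP10 were lower. The calls of ACVR1B, HAP1 and FKBP10 were lost under 10 of 16, 8 of 15 and 11 of 16 alternatives, and those of ATG101, JUP and KLHL11 under 1 each. No tested protein-coding gene outside the keratin family lay within 250 kb of KRT5.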
